A study of Mus musculus with 6 samples.

Results

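Secreted modulators of Wnt signalling were described in single-cell RNA profiles of the mouse cardiogenic region. The genes were Dkk1, Dkk2, Dkk3, Rspo2, Rspo3, Sfrp1, Sfrp2, Sfrp5 and Frzb, taken by symbol as 9 of the 32285 genes in the count table. All 9 were matched by exactly 1 row each. The embryos were wild-type C57BL/6 at E10.5. Their mothers had been pretreated either with vehicle, which left glucose normal (3 samples), or with streptozotocin (STZ), which made them hyperglycemic (3 samples). STZ kills the insulin-producing cells of the pancreas. The fathers were normoglycemic in both arms, so the samples share the embryonic genotype, the age and the paternal side, and differ in the treatment of the mother. The region was microdissected and also contained non-cardiac mesoderm, ectoderm and endoderm. Cells were captured in droplets and counted by unique molecular identifiers (UMIs), each of which marks 1 captured RNA molecule. Barcode suffixes 1 to 6 separate 6 libraries, but nothing in the files used here ties a suffix to a sample, so the effect of maternal STZ on these genes was not analysed and the libraries are described without a group. All tests between groups fall away for the same reason, and no p-value is given.

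Wnt ligands bind frizzled receptors together with the co-receptors Lrp5 and Lrp6, which stabilises beta-catenin and turns on target genes. Dickkopf proteins (Dkk1, Dkk2) bind Lrp5 and Lrp6 and mostly block this step, whereas Dkk3 is a divergent family member whose role in the pathway is less settled. R-spondins (Rspo2, Rspo3) raise the response by binding Lgr receptors and the E3 ligases Znrf3 and Rnf43, which otherwise remove frizzled receptors from the membrane. Secreted frizzled-related proteins (Sfrp1, Sfrp2, Sfrp5 and Frzb, also called Sfrp3) carry a frizzled-like domain that binds Wnt ligands outside the cell. In the embryonic heart the canonical pathway acts on progenitor expansion, outflow tract formation and valve cushion growth.

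Of 53362 barcodes, 35962 had at least 2500 detected genes and at most 10% mitochondrial UMIs and were used. The 6 libraries held 4903 to 7136 such cells with median depths of 30533 to 35634 UMIs. Cells were assigned to classes by marker genes that include no Wnt gene, and 22 classes were ranked. Class names rest on these gates alone and mean "X-like" throughout. Of 52 checks with marker genes kept out of the gates, 41 were at least 2-fold above all other cells and 6 were below them. The checks that failed included Nkx2-3, at 0.215 UMIs per 1000000 UMIs (CPM) in the splanchnic mesoderm class and 0.0419 CPM in foregut mesenchyme against 9.28 and 8.99 CPM in other cells, and Aldh1a2 in paraxial mesoderm. The other check of each of these classes was above other cells but by less than 2-fold. Gata4 was 1.05-fold higher in splanchnic mesoderm and 1.97-fold in foregut mesenchyme, and Foxc2 1.30-fold in paraxial mesoderm. Alx4 failed in 2 crest classes. Nppa was at 3.32 CPM in outflow cardiomyocytes against 94.4 CPM elsewhere. A class gated by Isl1, Tbx1, Fgf10, Nkx2-5 and Fgf8 had 2 branchiomeric muscle markers and 1 of its own among its 10 leading genes, and is called Isl1/Fgf10 mesoderm here rather than by a field. In that class 66.2% of cells, and in the branchiomeric, paraxial and cushion classes 58.1%, 54.1% and 43.6%, had only the minimum number of gate markers. A further 4816 cells (13.4%) met no gate. Another 3052 (8.49%) met a gate but did not lead the next marker list by 0.1 in the share of markers detected. Both sets were kept apart. A cell in a class can therefore meet more than 1 gate. Between 5 and 15 barcode sequences were shared by any pair of libraries among the cells used, and 283 cells were involved. Counting all barcodes, 2890 of the cells used (8.04%) shared their sequence with another library, from 75 cells in library 3 to 794 and 897 in libraries 4 and 5. Values without shared barcodes leave out these 2890 cells.

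Every one of the 9 genes reached 10 CPM in at least 1 class, against 36.2% of all 32285 genes in the table. Each had a different spread over the tissue (heat map of the 9 genes over 22 classes). Sfrp1 was the broadest, at 10 CPM or more in 20 of 22 classes, followed by Sfrp2 in 15. Sfrp5 and Dkk3 were the narrowest, with 2 classes each. In erythroid cells, used here as a low reference, the genes stood at 0.0815 CPM (Sfrp5) to 2.30 CPM (Sfrp1). Some of these molecules sat in few cells, as with 31 Dkk2 UMIs in 1.59% of the 126 erythroid cells of library 4. The values are therefore not a measure of free RNA alone. Median-of-ratios size factors in place of class totals raise the erythroid levels 3.18-fold. Hemoglobin genes such as Hba-x, at 132374 CPM, take up part of the erythroid total, but their part in this shift was not tested. Intervals below are 95% exact intervals for counting error only, and levels are CPM summed over the cells of a class. A molecule is counted once from its 3′ end, so levels were not divided by gene length.

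**Figure D1:**
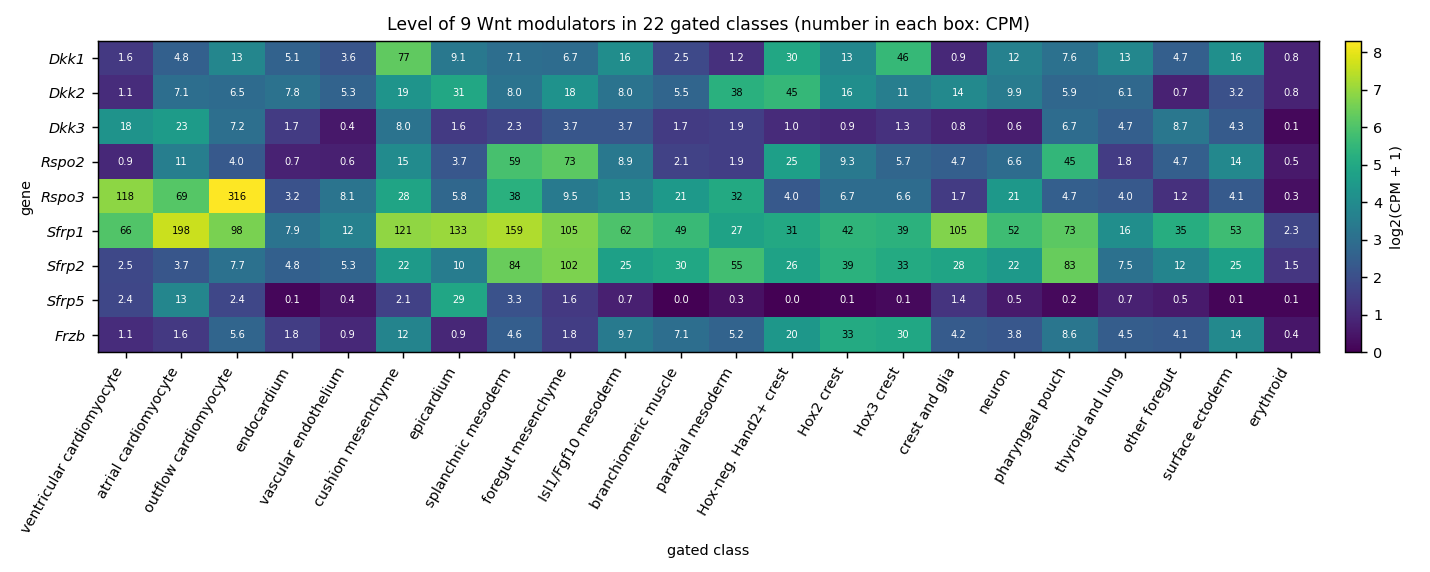
Level of the 9 genes (rows) in the 22 ranked classes (columns), coloured by log2(CPM + 1), with the CPM printed in each box. Rspo3 peaks at 316 CPM in outflow cardiomyocytes, Sfrp1 spans most classes, and Sfrp5 and Dkk3 are each at 10 CPM or more in 2 classes.

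For 2 of the 9 genes, Rspo3 and Sfrp5, the highest class was at least 2-fold above the next. Over all 11700 genes that reached 10 CPM in a ranked class, 9.07% did so. The count for the 9 genes was 0 with the mean of per-cell CPM and 0 after every cell was thinned to 5000 UMIs. The median ratio of the highest to the next class was 1.24 for the 9 genes and 1.09 for all those genes. The tau index, which is 0 for equal levels in all classes and 1 for a single class, had a median of 0.527 over the 9 genes against 0.148 over all. Sfrp5 had the highest tau of the set at 0.825 and Sfrp1 the lowest at 0.282. The 9 genes had not been drawn at random, so these medians are a description.

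Dkk1 (ENSMUSG00000024868, GRCm38 chromosome 19, 30545863 to 30549665, minus strand), a potent Lrp5/6 antagonist, was highest in cushion mesenchyme, the cells that fill the endocardial cushions from which valves form. The level there was 76.6 CPM (74.3 to 78.9), from 4312 UMIs in 1732 cells. Over the 6 libraries it had a low of 54.6, a median of 79.0 and a high of 96.4 CPM. All 6 values lay above the highest library of the next class, Hox3 crest, at 39.6 to 52.9 CPM. The ratio of the 2 classes was 1.65 (1.58 to 1.72).

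Dkk1 was uneven along the crest, the migratory cells that build the arches and outflow septum. Crest cells with Hoxa3, Hoxb3 or Hoxd3 UMIs (Hox3 crest, the code of the third and more posterior arches) held 46.5 CPM. Those with Hoxa2 or Hoxb2 only (Hox2 crest) held 13.4 CPM. The ratio was 3.47 (3.28 to 3.66), with Hox3 crest higher in 6 of 6 libraries. Hox-negative Hand2-positive crest lay between, at 30.5 CPM, but its libraries ran from 13.5 to 57.3 CPM and overlapped those of both other classes of crest. Endocardium, which lines the cushions, had 5.12 CPM, 14.9-fold (13.4 to 16.7) below cushion mesenchyme.

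Within the myocardium Dkk1 was 8.32-fold (6.71 to 10.4) higher in outflow cardiomyocytes, at 13.2 CPM, than in ventricular ones, at 1.58 CPM. That order held in 6 of 6 libraries. The outflow level was 24.6 CPM in the 406 cells with fewer UMIs and 7.29 CPM in the 405 with more. Ventricular cells divided by depth had 1.53 and 1.61 CPM. Most cells carried no Dkk1 molecule even in the highest class: 68.3% of cushion cells had none, and the 173 cells with most Dkk1 held 72.9% of the class total. Ungated cells carried 42.8 CPM and 19.2% of all Dkk1 molecules.

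Dkk1 is a known target of canonical Wnt signalling, so the 250 bases upstream of the transcript starts given by RefSeq (GRCm38.p6) were searched for the core letters bound by TCF/LEF factors, CTTTGA, on both strands. Upstream windows were found for 5 of the 9 genes (Dkk1, Dkk2, Sfrp2, Sfrp5 and Frzb). The letters occurred in 2 of these 5 and in 13.8% of all 32851 windows. Dkk1 had 2 matches and Frzb had 1. Each is shown 5′ to 3′ on the gene's own strand with 12 bases on either side and the match in capitals, because these were the only matches in the 5 windows:
Dkk1, 174 to 169 bases upstream, minus strand, chr19:30549653-30549682: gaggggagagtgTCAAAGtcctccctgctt
Dkk1, 117 to 112 bases upstream, minus strand, chr19:30549596-30549625: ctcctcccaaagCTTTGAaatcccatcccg
Frzb, 95 to 90 bases upstream, minus strand, chr2:80447474-80447503: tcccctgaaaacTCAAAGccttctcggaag
The second Dkk1 stretch and the Frzb stretch lie inside the genes as GENCODE M21 draws them, which start further upstream than the RefSeq transcripts. The first Dkk1 stretch spans the GENCODE start of Dkk1, at base 30549665. A match of 6 letters is a description and does not show binding.

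Dkk2 (ENSMUSG00000028031, chromosome 3, 132085292 to 132180304, plus strand), an Lrp5/6 ligand that can block or raise the signal depending on the cell, led in Hox-negative Hand2-positive crest at 45.2 CPM (42.1 to 48.5). Paraxial mesoderm followed at 38.1 CPM (34.8 to 41.5) and epicardium at 30.7 CPM (29.2 to 32.2). The first 2 classes were not separated, since the crest class was higher in 4 of 6 libraries and the libraries overlapped (34.9 to 61.6 against 27.3 to 82.7 CPM). Against Hox2 crest, at 16.1 CPM, the leading class was 2.80-fold (2.58 to 3.04) higher, in 6 of 6 libraries. Ventricular cardiomyocytes had 1.09 CPM. Ungated cells held 21.999% of all Dkk2 molecules, the largest share of any class.

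The Dkk2 level of the epicardium class, the outer mesothelial layer of the heart, differed more between libraries than that of any other class with 10 CPM or more of Dkk2. It was 25.4, 25.9, 3.24, 129, 30.8 and 4.42 CPM in libraries 1 to 6, a 39.8-fold range (plot of Dkk2 in epicardium-gated cells). The counting intervals of library 4 (120 to 138 CPM) and of libraries 3 and 6 did not touch. Few cells were behind the signal: 90 of 1244 cells had 5 or more Dkk2 UMIs and held 1505 of the 1693 molecules. Library 4 supplied 35 of these 90 cells, library 3 had 2 and library 6 none.

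Those 90 cells differed from the 1060 epicardium-gated cells with no Dkk2 molecule in other genes too. The 6 epicardial gate markers summed to 492 CPM in them against 1405 CPM, and Tbx18, an epicardial transcription factor kept out of the gate, stood at 28.9 against 305 CPM. The 8 crest gate markers summed to 601 against 115 CPM, of which Twist1, a mesenchymal regulator, made up 436 against 90.2 CPM. Sfrp1 was at 339.9 CPM against 111 CPM and Dkk1 at 78.6 against 3.18 CPM. Rspo2 was at 18.5 against 1.91 CPM, Rspo3 at 25.7 against 4.28 CPM and Sfrp2 at 39.6 against 6.85 CPM. Sfrp5 was at 42.5 against 27.3 CPM, Dkk3 at 1.07 against 1.67 CPM and Frzb at 1.60 against 0.848 CPM. The cardiomyocyte and splanchnic marker sums were 133 against 69.1 CPM and 258 against 181 CPM. The median depth was 39836 UMIs against 43336. Because the cells were divided by Dkk2 itself, these values are a description with no test.

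**Figure D2:**
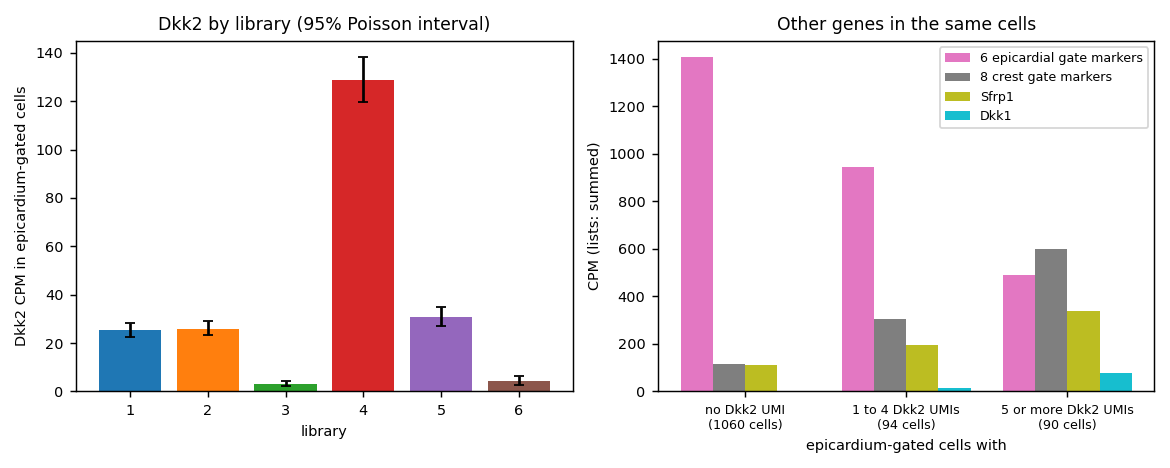
Left: Dkk2 CPM in epicardium-gated cells of libraries 1 to 6, with 95% exact Poisson intervals; library 4 is at 129 CPM and libraries 3 and 6 are under 5 CPM. Right: CPM of other genes and summed marker lists in the same class, divided by the number of Dkk2 UMIs per cell; epicardial markers fall from 1405 to 492 CPM while the crest list, Sfrp1 and Dkk1 are higher in the 90 cells with 5 or more.

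Summed gate markers of several lists also differed between libraries in this class. The crest list was at 120.2, 175, 123, 287, 185 and 141 CPM in libraries 1 to 6, so the 3 libraries with most Dkk2 (4, 5 and 2) had the 3 highest crest sums in the same order, while library 1 had the lowest. The epicardial list was at 1472, 1341, 1584, 960.2, 1039 and 1074 CPM, lowest in library 4 and highest in library 3, which had the least Dkk2. Library 4 was also the extreme for the cardiomyocyte list (112 CPM, against 60.2 to 77.3 CPM), the neuron list (97.3 against 43.5 to 65.2 CPM) and the cushion mesenchyme list (348 against 419 to 493 CPM). Library 4 was the lowest for the branchiomeric muscle list (188 against 214 to 294 CPM) and the highest for the splanchnic list (223 against 170 to 221 CPM). The crest and glial, macrophage, megakaryocyte and hepatocyte lists, all at low levels, also had an extreme in that library. The part of cell composition in the Dkk2 range was not tested.

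Dkk3 (ENSMUSG00000030772, chromosome 7, 112116017 to 112159057, minus strand) was the only Dkk gene that led in heart muscle. It was at 22.5 CPM (21.2 to 23.9) in atrial and 18.2 CPM (17.2 to 19.3) in ventricular cardiomyocytes. Libraries spanned 18.4 to 26.6 and 13.8 to 24.6 CPM, so the 2 chambers overlapped, although the atrial value was higher in 5 of 6. Divided by depth within each class, atrial cells had 16.4 CPM in the shallower and 25.6 CPM in the deeper cells. Ventricular cells had 23.7 and 15.4 CPM, so their level was the higher among the shallower cells. Outflow cardiomyocytes had 7.22 CPM, 3.12-fold (2.70 to 3.63) below atrial and 2.52-fold (2.18 to 2.93) below ventricular cells, each in 6 of 6 libraries. The 3 cardiomyocyte classes held 45.3% of Dkk3 molecules with 11.3% of all UMIs. The next class was non-pouch, Nkx2-1-negative foregut (other foregut) at 8.73 CPM. After every cell was thinned to 5000 UMIs, 10.4% of atrial cells had a Dkk3 molecule, against 0.137% of erythroid cells, while the unthinned shares were 43.4% and 0.754%.

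Rspo3 (ENSMUSG00000019880, chromosome 10, 29452416 to 29535867, minus strand), an R-spondin needed for placental and vascular development, had the highest level of any of the 9 genes. Outflow cardiomyocytes held 316 CPM (310.0 to 323). Libraries 1 to 6 stood at 311, 327, 283, 293, 307 and 357 CPM, a range of 1.26-fold. All 6 exceeded every ventricular value (77.3 to 183 CPM). Ventricular cardiomyocytes had 118 CPM and atrial ones 68.6 CPM, and the ratio of outflow to ventricular was 2.68 (2.60 to 2.76). Together the 3 classes held 57.3% of Rspo3 molecules. Endocardium, next to the myocardium, had 3.23 CPM, 97.9-fold (85.7 to 112) below outflow myocardium.

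The distance between outflow and ventricle depended on how cells were weighted. When each cell's CPM was averaged, the log2 ratio fell from 1.42 to 0.59, and after thinning to 5000 UMIs it was 0.54. Without the 5% of cells with most UMIs it was 0.99. All 3 values lie below a 2-fold difference. Outflow stayed the higher class under every alternative run. In the ventricular class Rspo3 was concentrated in cells with fewer UMIs: it was at 274 CPM in the 617 shallower cells (median 39512 UMIs) and 36.8 CPM in the 617 deeper ones (median 69449 UMIs). Outflow cells went the other way, with 189 CPM in the shallower and 382 CPM in the deeper cells. The cells were divided by depth within each class, and among the shallower cells the ventricular level was the higher.

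The ventricular cells with Rspo3 also carried a different set of transcripts. In 247 of 1234 ventricular cells with 5 or more Rspo3 UMIs, Nppa, a chamber myocardium gene, was at 77.4 CPM against 980.4 CPM in the 893 cells with none. Myl2, a ventricular myosin light chain, was at 2273 against 4176 CPM, and Hey2, a compact-layer regulator, at 12.9 against 38.4 CPM. Bmp4, a ligand made by outflow myocardium, was at 39.5 against 8.31 CPM. The other genes of the outflow list were also higher, by smaller factors. Cxcl12 was at 34.7 against 18.4 CPM and Sema3c at 27.0 against 21.5 CPM. Isl1 was at 7.55 against 3.28 CPM and Tdgf1 at 1.59 against 0.509 CPM. Irx4, a ventricular identity factor, was at 77.2 against 72.0 CPM, and the summed sarcomeric gate markers were at 6799.7 and 5782 CPM. The median depths were 36815 and 57789 UMIs. The cells were again divided by the gene described. All of these genes except Nppa and the gate markers belong to the lists that split the cardiomyocytes.

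**Figure D3:**
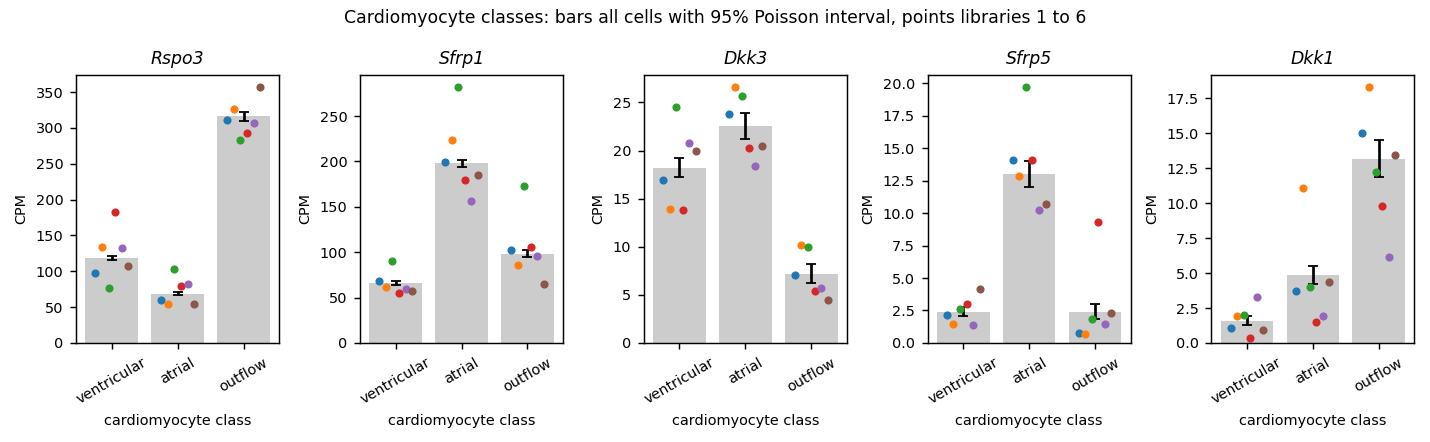
CPM of Rspo3, Sfrp1, Dkk3, Sfrp5 and Dkk1 in ventricular, atrial and outflow cardiomyocytes. Bars give all cells of a class with 95% exact Poisson intervals and points give libraries 1 to 6. Rspo3 and Dkk1 are highest in outflow, whereas Sfrp1, Sfrp5 and Dkk3 are highest in atrial cells.

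Outside the heart muscle, Rspo3 was found in splanchnic mesoderm at 37.8 CPM, in paraxial mesoderm at 31.8 CPM and in cushion mesenchyme at 27.9 CPM. Its level was 3.99-fold (3.48 to 4.59) higher in splanchnic mesoderm than in Tbx4-positive foregut mesenchyme, in 5 of 5 libraries. The paraxial value rested on some of the libraries, since it was 0.826 CPM in the lowest, 18.9 CPM at the median and 46.9 CPM in the highest.

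Rspo2 (ENSMUSG00000051920, chromosome 15, 43020794 to 43170826, minus strand), known for lung and limb outgrowth, was highest in foregut mesenchyme at 73.3 CPM (69.9 to 76.8), then in splanchnic mesoderm at 59.0 CPM (57.2 to 60.9). The 5 libraries with at least 20 foregut mesenchyme cells gave a low of 48.7, a median of 76.8 and a high of 92.3 CPM. Splanchnic libraries ran from 29.5 to 96.4 CPM and overlapped them fully, so the order of the 2 classes is not settled, although foregut mesenchyme was higher in 4 of 5.

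Rspo2 was also found in epithelium. Pharyngeal pouch endoderm, marked by Pax1 or Pax9, had 44.7 CPM, against 1.796 CPM in Nkx2-1-positive thyroid and lung endoderm and 13.8 CPM in surface ectoderm. The pouch was 24.9-fold (17.3 to 37.2) above thyroid and lung and 3.25-fold (3.02 to 3.501) above surface ectoderm, each in 6 of 6 libraries. Atrial cardiomyocytes had 10.7 CPM of Rspo2 and ventricular cells 0.944 CPM. The atrial level was 23.6 CPM in the 588 cells with fewer UMIs and 4.27 CPM in the 588 with more. The 2 R-spondins therefore had separate leading classes, and over 22 classes Pearson's r of their log2(CPM + 1) was 0.067. Classes share libraries and depth, so this r is a description.

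Rspo1, an R-spondin outside the 9 genes, was high in the same mesenchyme. It reached 154 CPM in foregut mesenchyme, 106 CPM in splanchnic mesoderm and 71.7 CPM in epicardium. In foregut mesenchyme the highest library was at 179 CPM and the lowest, library 2 with only 20 such cells, at 26.0 CPM.

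Sfrp1 (ENSMUSG00000031548, chromosome 8, 23411502 to 23449632, plus strand), a Wnt-binding antagonist, was the most abundant of the 9 genes over all cells at 79.7 CPM. A molecule was seen in 63.5% of cells. Its highest class was atrial cardiomyocytes at 198 CPM (194 to 202), followed by splanchnic mesoderm at 159 CPM, epicardium at 133 CPM and cushion mesenchyme at 121 CPM. Atrial libraries had a low of 157, a median of 192 and a high of 282 CPM, and splanchnic libraries ran from 137 to 233 CPM. These ranges overlapped, with the atrial class higher in 5 of 6 libraries.

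Among cardiomyocytes, Sfrp1 in atrial cells was 2.02-fold (1.93 to 2.10) above outflow and 3.00-fold (2.90 to 3.11) above ventricular cells, each in 6 of 6 libraries. After thinning, 55.1% of atrial, 29.7% of outflow and 27.2% of ventricular cells had an Sfrp1 molecule (95.1% of atrial cells before thinning), against 1.10% of erythroid cells. Crest and glial progenitors, with Sox10 and Foxd3 among their gate markers, had 105.35 CPM, 2.67-fold (2.51 to 2.83) above Hox3 crest in 5 of 5 libraries. Endothelia were lowest apart from erythroid cells, with 11.6 CPM in vascular endothelium and 7.90 CPM in endocardium.

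Sfrp2 (ENSMUSG00000027996, chromosome 3, 83766321 to 83774316, plus strand), a close relative of Sfrp1, was low in heart muscle, at 2.48 to 7.66 CPM. It was highest in foregut mesenchyme at 102 CPM (98.0 to 106), splanchnic mesoderm at 83.7 CPM and pharyngeal pouch at 82.6 CPM. Splanchnic mesoderm was the higher of the first 2 in 4 of 5 libraries when compared within a library, although the class summed over all cells was 1.22-fold lower, so no order can be given. The pouch was 11.03-fold (9.21 to 13.3) above thyroid and lung and 6.70-fold (5.75 to 7.84) above other foregut, in 6 of 6 libraries. In the pouch, 54.0% of cells had no Sfrp2 molecule and the top 205 of 2051 cells held 76.4% of the total. In foregut mesenchyme only 24.5% of cells had none.

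Among the 9 genes, Rspo2 had the class pattern nearest to that of Sfrp2. Across the 22 classes, Pearson's r between them was 0.745, the highest of the 36 pairs that the 9 genes form. The next was Dkk1 with Frzb at 0.672. The likeness of Sfrp2 and Rspo2 did not hold in every class. In paraxial mesoderm Sfrp2 was at 55.0 CPM, while Rspo2 reached at most 4.88 CPM in a library. In single splanchnic cells thinned to 5000 UMIs, 14.2% had both Sfrp1 and Sfrp2 molecules, the largest share for any pair of the 9 genes in any ranked class. The product of the 2 single-gene shares was 13.4%. In outflow cardiomyocytes 9.74% had both Rspo3 and Sfrp1, against a product of 12.5%. Rspo2 and Sfrp2 were found together in 3.02% of splanchnic cells (product 3.67%) and in 3.85% of foregut mesenchyme cells (product 5.32%).

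Sfrp5 (ENSMUSG00000018822, chromosome 19, 42197971 to 42202252, minus strand), an antagonist known from the heart inflow and foregut, was the most restricted by tau. Epicardium had 29.2 CPM (27.8 to 30.7) and held 38.6% of all its molecules. Atrial cardiomyocytes had 13.0 CPM (12.02 to 14.0) and the third class, splanchnic mesoderm, 3.31 CPM. Libraries ran from 21.1 to 34.9 CPM in epicardium and from 10.2 to 19.7 CPM in atrial cells, without overlap, and the ratio was 2.25 (2.05 to 2.47). Its log2 of 1.17 fell below a 2-fold difference with the mean of per-cell CPM (0.96), with median-of-ratios size factors (0.98), after thinning (0.92) and without shared barcodes (0.99). Atrial cells were 5.42-fold (4.56 to 6.47) above ventricular cells in 6 of 6 libraries. No molecule was counted in 7483173 UMIs of branchiomeric muscle, which allows up to 0.401 CPM, or in 17399394 UMIs of Hox-negative Hand2-positive crest, which allows up to 0.172 CPM.

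Sfrp5 had a 1.66-fold range over the libraries of epicardium-gated cells, narrower than the 39.8-fold range of Dkk2 but wider than the median of 1.34 over all genes in their highest class. Library 3 (18.5 to 23.9 CPM) and library 2 (31.7 to 38.4 CPM) did not overlap in their counting intervals. Over all these cells, 12.6% had an Sfrp5 molecule after thinning. Its upstream window was searched for AGATAA, letters bound by GATA factors, on both strands, since Gata4 marks much of the embryonic heart. AGATAA occurred in Sfrp5 alone of the 5 windows and in 9.99% of all. The window is printed 5′ to 3′ with both matches in capitals, for the gene with the highest tau:
Sfrp5, minus strand, chr19:42202253-42202502: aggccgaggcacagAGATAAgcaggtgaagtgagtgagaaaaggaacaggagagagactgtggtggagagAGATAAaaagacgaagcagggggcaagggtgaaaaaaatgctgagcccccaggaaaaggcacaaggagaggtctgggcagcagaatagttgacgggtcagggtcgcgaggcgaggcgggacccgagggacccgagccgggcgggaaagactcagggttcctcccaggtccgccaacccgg
The matches start 236 and 180 bases upstream of the RefSeq transcript start, and nothing about binding follows from them.

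Frzb (ENSMUSG00000027004, chromosome 2, 80411970 to 80447625, minus strand), a secreted antagonist first known from cartilage, led in crest. Hox2 crest had 33.0 CPM (32.0 to 34.0) and Hox3 crest 29.9 CPM (28.8 to 31.0). Their libraries overlapped (26.6 to 39.0 and 26.1 to 39.3 CPM), with Hox2 higher in 4 of 6. Hox-negative Hand2-positive crest was lower, at 19.9 CPM, and below Hox2 crest by 1.65-fold (1.48 to 1.85) in 6 of 6 libraries. The 3 crest classes held 56.2% of Frzb molecules with 19.0% of all UMIs.

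Other crest derivatives and epithelia had less Frzb. Sox10-positive crest and glia had 4.20 CPM, 7.85-fold (6.11 to 10.3) below Hox2 crest in 5 of 5 libraries, and surface ectoderm had 14.0 CPM. Cushion mesenchyme had 12.3 CPM against 1.83 CPM in endocardium, a 6.73-fold (5.56 to 8.20) difference in 6 of 6 libraries. Frzb was spread more evenly over cells than Dkk1. In Hox3 crest, 38.0% of cells had no Frzb molecule and the top 231 cells held 35.8% of the total, against 68.2% and 71.5% for Dkk1 in the same cells.

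The spread over libraries depended on gene and class (plot of levels by library). In its highest class 1 of the 9 genes, Sfrp2, had at least a 2-fold range over libraries, against 11.4% of all genes in theirs. The value rests on library 2, which had 20 foregut mesenchyme cells and 46.8 CPM. The other 4 libraries with enough cells ran from 87.7 to 135 CPM, and without library 2 no gene passed. Library 1, with 16 such cells, gave no value, against 141 to 223 cells in libraries 3 to 6. Over every class in which one of the 9 genes reached 10 CPM, 44 of 77 values had at least a 2-fold range, against 7.55% for all genes. That share also counts abundant genes, whose counting error is smaller, and cell makeup differed between libraries, so the part of either was not tested.

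**Figure D4:**
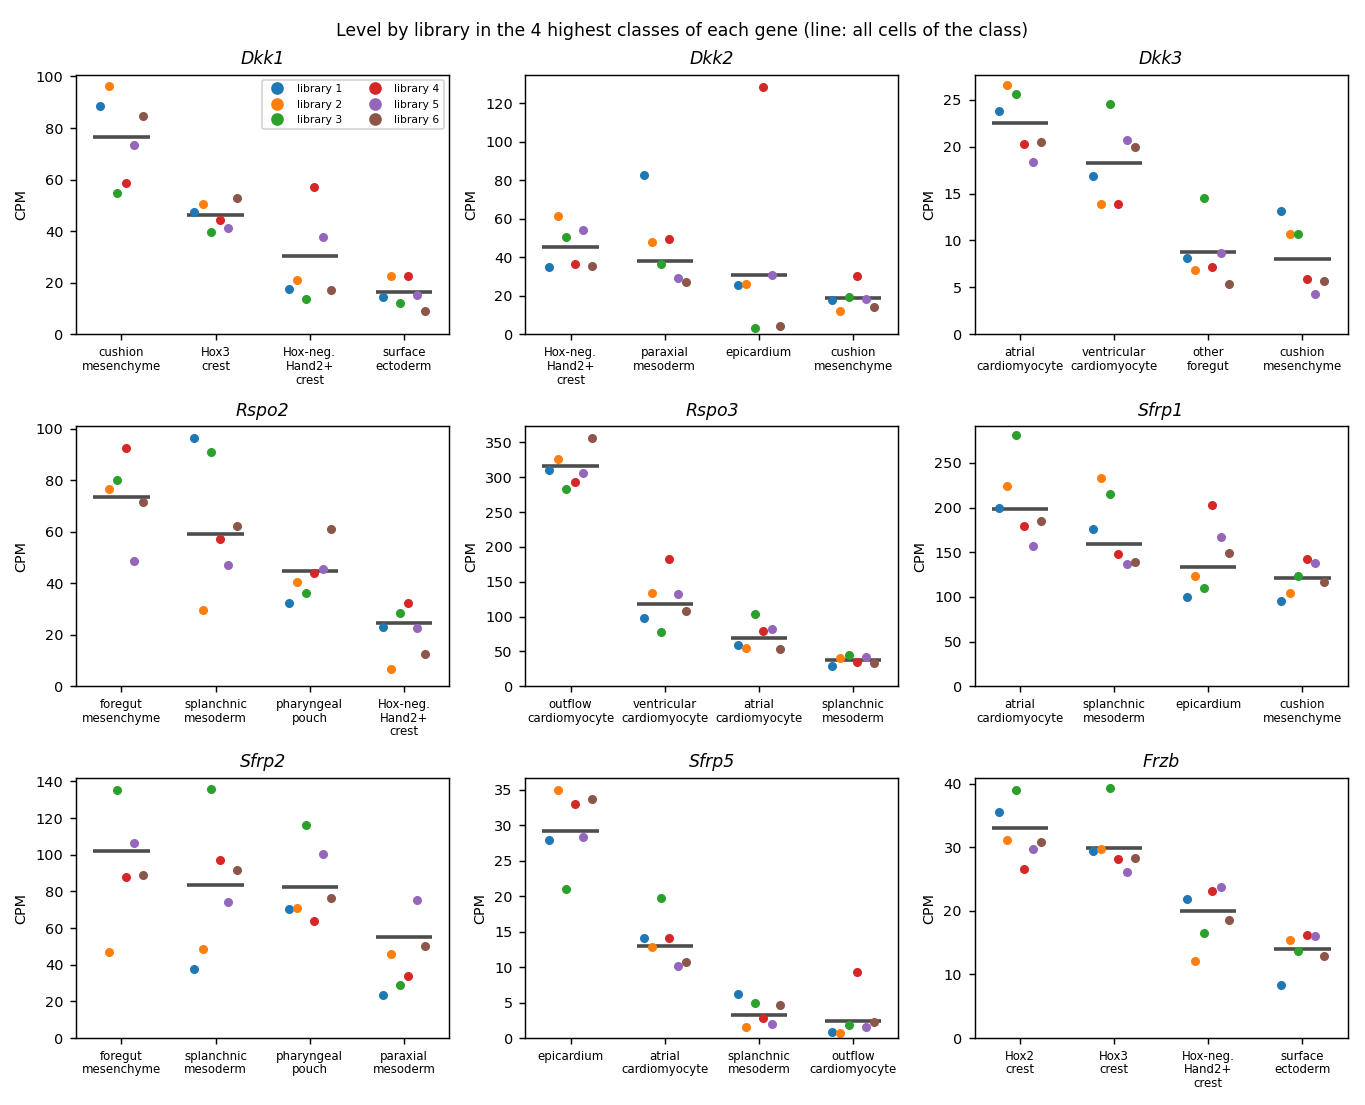
CPM of each gene in its 4 highest classes, 1 panel per gene. Points are libraries 1 to 6 with at least 20 cells of the class and the line is the value over all its cells. Dkk2 in epicardium spreads from 3.24 to 129 CPM, whereas Rspo3 in outflow cardiomyocytes stays between 283 and 357 CPM.

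Several library ranges were wide below the highest class. Sfrp2 in splanchnic mesoderm was 37.5 and 48.7 CPM in libraries 1 and 2 and 74.1 to 136 CPM in the other 4. Some gate markers of that class split the same way and others did not. Foxf1 was at 164 and 158 CPM in libraries 1 and 2 and 252 to 376 CPM in the others, Osr1 at 107 and 83.4 against 163 to 192 CPM, and Tbx5 at 53.6 and 34.6 against 63.3 to 82.8 CPM. Gata6, at 107 and 83.1 against 82.4 to 96.7 CPM, Foxf2, at 20.3 and 23.5 against 18.9 to 23.6 CPM, and Hoxb1, at 19.6 and 22.1 against 11.7 to 27.9 CPM, overlapped. The part of these markers in the Sfrp2 split was not tested. Rspo2 in the same class did not share that split, since library 1 was its highest at 96.4 CPM and library 2 its lowest at 29.5 CPM. Dkk2 in Hox2 crest was 17.01, 17.04 and 32.3 CPM in libraries 1 to 3 and 7.44, 8.48 and 8.40 CPM in libraries 4 to 6. Gate markers of that class differed in this respect too, with Msx1 at 93.4 to 114 against 59.5 to 76.6 CPM, Dlx2 at 56.02 to 64.02 against 76.8 to 80.3 CPM and Tfap2b at 1.65 to 4.19 against 5.61 to 9.08 CPM. Dlx5, Dlx6 and Prrx1 were also separated, whereas Dlx1 (49.99 to 62.7 against 61.6 to 69.02 CPM) and Twist1 (353 to 388 against 365 to 399.9 CPM) overlapped. Markers named beside a library split were chosen after their values were seen, and the part of these in the Dkk2 split was not tested.

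Genes of the receiving side were present in the same tissue (heat map of R-spondins and partners). Of the 5 R-spondin receptors and E3 ligases, 4 reached 10 CPM in a class, to be read, like the counts of partner genes that follow, against the 36.2% of all genes that did. Znrf3 did so in 22 of 22 classes and Lgr4 in 21, so both were found where Rspo2 and Rspo3 had their highest summed levels: foregut mesenchyme had 32.7 CPM of Lgr4 and 128 CPM of Znrf3, and outflow cardiomyocytes had 27.6 and 42.1 CPM. Lgr5 and Rnf43 were highest in thyroid and lung endoderm, at 32.8 and 31.8 CPM. Lgr5 was also at 15.9 CPM in paraxial mesoderm. Rnf43 passed 10 CPM only in the 4 epithelial classes and was at 0.102 CPM in outflow cardiomyocytes. Lgr6 was the exception, with 3.55 CPM at most.

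**Figure D5:**
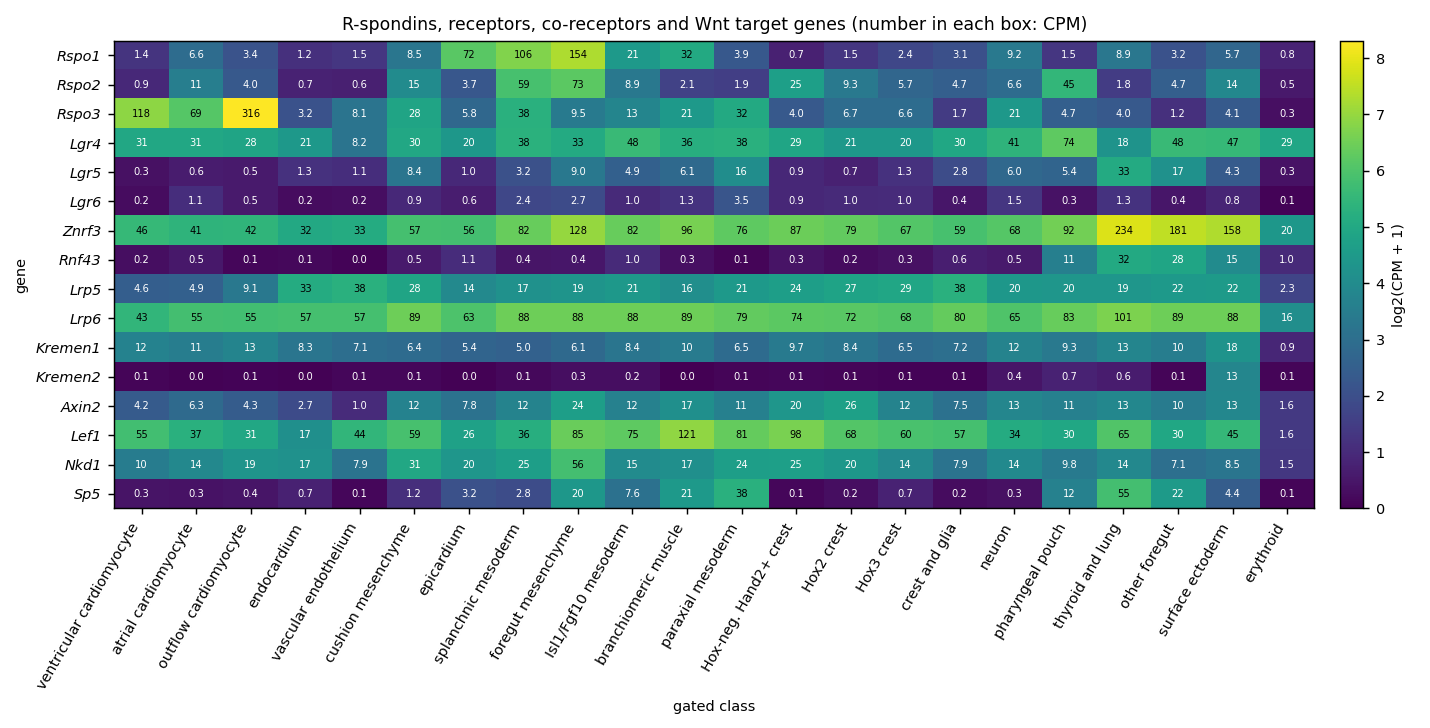
Level of the R-spondins, their receptors and E3 ligases, the Dkk co-receptors and 4 Wnt target genes (rows) in the 22 ranked classes (columns), coloured by log2(CPM + 1), with CPM in each box. Lgr4, Znrf3 and Lrp6 are broad, whereas Rnf43 and Kremen2 are highest in epithelia. Lgr5 is highest in thyroid and lung endoderm but also reaches 15.9 CPM in paraxial mesoderm.

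Of the 4 Dkk co-receptors, all reached 10 CPM. Lrp6 did so in 22 of 22 classes, with a median of 76.1 CPM. Lrp5 was low in the muscle classes that hold Dkk3, at 4.85 CPM in atrial and 4.605 CPM in ventricular cells, against 38.1 CPM in crest and glia and 27.7 CPM in cushion mesenchyme, where Dkk1 led. Kremen1, which joins Dkk1 in removing Lrp6 from the membrane, was at 6.43 CPM in cushion mesenchyme and 18.1 CPM in surface ectoderm. Kremen2 passed 10 CPM in surface ectoderm alone, at 13.1 CPM.

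Of 13 frizzled and other Wnt receptors, 10 reached 10 CPM. Fzd2 was the most abundant frizzled gene in all ranked classes except neuron, crest and glia, vascular endothelium, endocardium and erythroid cells. It was highest in Hox2 crest at 158 CPM and in cushion mesenchyme at 156 CPM. In the classes with the highest summed levels of Sfrp2, Sfrp5 and Sfrp1 it was at 113 CPM (foregut mesenchyme), 100.4 CPM (epicardium) and 62.4 CPM (atrial cardiomyocytes). Fzd1 was highest in outflow cardiomyocytes at 30.1 CPM, and Ror2, a receptor for non-canonical Wnt ligands, in foregut mesenchyme at 117 CPM.

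Of 7 Wnt target genes, 6 reached 10 CPM. Foregut mesenchyme, which had the highest summed levels of Rspo2 and Sfrp2 without being separated from splanchnic mesoderm, had 24.0 CPM of Axin2, 55.6 CPM of Nkd1, 84.6 CPM of Lef1 and 20.3 CPM of Sp5. Outflow cardiomyocytes, which led for Rspo3, had 4.34 CPM of Axin2, 18.7 CPM of Nkd1 and 30.6 CPM of Lef1. Axin2 was highest in Hox2 crest at 25.5 CPM, where Frzb had its highest summed level and Lef1 was at 67.6 CPM. Cushion mesenchyme, where Dkk1 led, had 11.9 CPM of Axin2, 30.6 CPM of Nkd1 and 58.9 CPM of Lef1. Nkd1 in foregut mesenchyme ranged from 44.4 to 117 CPM over libraries, and the high came from library 2, which had only 20 such cells. Sp5 was at 0.373 CPM in outflow cardiomyocytes, 0.247 CPM in Hox2 crest and 1.17 CPM in cushion mesenchyme. In foregut mesenchyme, outflow cardiomyocytes, Hox2 crest and cushion mesenchyme, Dact1 was at 35.6, 26.9, 17.2 and 52.8 CPM. Tcf7 was at 18.7, 8.23, 16.1 and 8.42 CPM in the same order.

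Of 10 other secreted modulators, 3 reached 10 CPM: Rspo1, Sostdc1 and Sost. Sostdc1, an Lrp-binding antagonist, was at 193 CPM in surface ectoderm and 28.6 CPM in pharyngeal pouch. Sost, the gene of sclerostin, was at 20.2 CPM in endocardium and 12.1 CPM in vascular endothelium, classes in which no member of the 9 exceeded 11.6 CPM.

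The genes most like each of the 9 over the 22 classes, by Pearson's r of log2(CPM + 1) among genes at 10 CPM or more, were as follows. Rspo3 was nearest to Des (r = 0.926), a muscle intermediate filament, and Nfil3 (0.898). Sfrp1 was nearest to Slit3 (0.902) and Tpm2 (0.852), and Sfrp2 to Kif18a (0.890) and Gli1 (0.889), the second a Hedgehog target. Sfrp5 was nearest to Enpep (0.883) and Rpp25 (0.878), and Dkk3 to Tcea3 (0.888) and Slc6a13 (0.887). Frzb was nearest to Dusp9 (0.850) and Wfikkn1 (0.838), and Dkk2 to Twist1 (0.832) and Pdgfra (0.807). Dkk1 had Msx1 (0.776) and Rgs5 (0.773), and Rspo2 had Gm32618 (0.763) and Sfrp2 (0.745). Msx1 and Twist1 are also crest gate markers, Rgs5 is a gate marker of the unranked mural class, and Pdgfra is a check marker of cushion mesenchyme. The points share cells, libraries and depth, so r carries no p here.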

How the data were processed

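Per the labels, cells from 6 samples (3 vehicle, 3 streptozotocin) were made into Chromium 3′ libraries. The sample descriptions name a chromatin assay while titles, library source and kit name RNA, and values were used as RNA counts. The authors deposited 1 matrix of whole-number UMI counts for all samples, whose header names Cell Ranger 5.0.0; the submitters' processing notes give mm10. Its 53362 barcodes carry suffixes with no pairing to samples, so the planned comparison of streptozotocin with vehicle was not run.

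The 9 genes, the marker lists and the partner lists were chosen with earlier results of these data known. The 35962 cells used gave 1310946988 UMIs. A cell joined a class with at least 1 UMI in 0.5 or more of its gate markers (5 to 8 per list, 17 lists) and a lead of 0.1 over the next list; the lead was set after gate-marker counts, but no Wnt gene, had been seen. Classes were then divided by further markers. A class was ranked with 20 cells in at least 3 libraries and a median depth of at least 0.5 of all cells', a rule set after the classes were seen. It left out mural, macrophage and megakaryocyte gates and a shallow Hox-negative Dlx5/6-positive crest gate (117 cells, 12651 UMIs), 6 of whose 10 leading genes were those of Hox2 crest. No doublet caller was run, and 367 cells tied between subclasses were left out.

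Counts were summed per class and divided by the class total (CPM). Intervals are exact Poisson (levels), Clopper-Pearson (shares) or the binomial form for ratios, at 95%, and a count of 0 allows 3 counts. Cells were thinned to 5000 UMIs without replacement, leaving out 4 shallower cells. Named partner genes are those at 10 CPM or more in a class that one of the 9 leads, or those singled out by a count of 5 or fewer; for each of the 9, the 2 genes with the highest r were named. Genes named to describe cells divided by Dkk2 or Rspo3 were chosen after values were seen. The ranking was tested on simulated data. Python 3.11.15, numpy 2.4.6, scipy 1.17.1 and pandas 2.3.3 were used. Alternatives covered filters, gates, weighting, scaling, thinning, shared barcodes, the deepest cells and each library left out.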

Additional observations from a re-analysis of the deposited data

How the results depend on the processing

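All 9 genes reached 10 CPM under every alternative run for that count. The number with a highest class at least 2-fold above the next was 2. It was 0 with the mean of per-cell CPM, 0 after thinning to 5000 UMIs and 0 at a 3-fold limit. It was 1 with median-of-ratios size factors, 1 without shared barcodes and 1 without the 5% of cells with most UMIs. The number with at least a 2-fold range over libraries in the highest class was 1. It was 2 with 1 more gate marker required, 2 after thinning and 0 with 50 cells required in a library, and 0 (without library 2) to 2 (without library 5) when each library was left out in turn. The gene lost at 1 was Sfrp5 with the size factors and without shared barcodes, and Rspo3 without the deepest cells. The cause was not tested. Wider gate leads and other sets of ranked classes were added after seeing the data. Of 153 recomputed log2 ratios of a gene's highest to its next class, 103 stayed within the 95% counting interval of the main ratio, 47 left it (14 of 17 for Rspo3 and 8 of 17 for Sfrp1) and 3 turned: Dkk2 to -0.0012 with libraries weighted equally and to -0.058 without library 5 (main value 0.25, and -0.058 to 0.42 over the libraries left out), and Frzb to -0.055 after thinning (main value 0.14). No paired analysis was possible because no library is tied to a sample. Depth limits the cells in which low genes are seen, and library values of classes with few cells, such as foregut mesenchyme in library 2, rest on few molecules.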

Other observations

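Several other values differed between libraries that the labels put in no group. Dkk1 in Hox-negative Hand2-positive crest was 17.4, 21.1, 13.5, 57.3, 37.9 and 17.3 CPM in libraries 1 to 6, so libraries 4 and 5 lay above the other 4. Several markers of the class split the same way, Barx1 among them: it was at 34.6 and 23.1 CPM in libraries 4 and 5 against 114 to 194 CPM in the others, Dlx1 at 8.54 and 9.79 against 25.4 to 44.7 CPM, Alx4 at 11.01 and 12.9 against 0 to 2.94 CPM, and Msx1 at 211 and 208 against 90.1 to 177 CPM. Dlx5 (70.1 to 83.8 CPM over all libraries), Dlx6 (59.9 to 76.4 CPM) and Twist1 (309 to 363 CPM) did not split in this way. Rspo3 in paraxial mesoderm was 3.18, 10.4, 0.826, 27.4, 46.9 and 43.9 CPM in the same order, with libraries 4 to 6 above libraries 1 to 3. In that class Uncx was at 0 to 5.72 CPM in libraries 1 to 3 and 22.2 to 57.6 CPM in libraries 4 to 6, Meox2 at 12.4 to 55.6 against 87.3 to 137 CPM, and Tcf15 at 443 to 537 against 224 to 317 CPM. Meox1 and Pax3 overlapped between the same libraries. These markers were chosen after their values were seen, and their part in the Dkk1 and Rspo3 values was not tested. Rspo2 in cushion mesenchyme was 4.29 and 8.85 CPM in libraries 1 and 2 and 17.0 to 21.8 CPM in the other 4. Of its gate markers, Tbx20 (549 and 524 against 245 to 427 CPM) and Sox9 (218 and 230 against 177 to 204 CPM) split on the same libraries. Postn, Hapln1, Papss2 and Vcan did not, but each was higher in libraries 1 to 3 than in libraries 4 to 6. The part of these markers in the Rspo2 values was not tested. Sfrp5 in outflow cardiomyocytes was 9.32 CPM in library 4 and 0.709 to 2.32 CPM in the rest. Dkk2 in foregut mesenchyme was 94.98 CPM in the 20 cells of library 2 and 12.6 to 18.9 CPM in libraries 3 to 6. Gate markers differed in those 20 cells. Foxf1 (190 against 275 to 489 CPM), Osr1 (66.4 against 181 to 233 CPM) and Tbx5 (131 against 169 to 223 CPM) were lower. Foxf2 (19.5 against 9.27 to 13.5 CPM) and Gata6 (144 against 87.2 to 123 CPM) were higher. Their part in the Dkk2 value was not tested.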
